A study of Homo sapiens with 4 samples.

Results

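The sites described here are crosslink sites of PDCD4 and of control IgG that lie in introns, directly downstream of 5′ splice sites (5′SS, the exon-intron boundaries). A site was taken when its nucleotide lay, on its own strand, in no annotated exon, in the first 100 nt of an intron of GENCODE release 44 (GRCh38) and not in the last 100 nt of any intron. This held for 3834 of 270283 listed sites, of which 2340 of 158922 were in the PDCD4 list and 1494 of 111361 in the IgG list. The rule uses position alone and no score. The sites came from iCLIP of MCF10A cells of wild-type genotype, a line of breast epithelium that is established but not transformed, grown with epidermal growth factor, insulin, hydrocortisone, cholera toxin and horse serum. RNA was cross-linked to protein by UV light and immunoprecipitated with an antibody to PDCD4 or with IgG, with 2 replicates of each. The replicates were pooled in 1 list per immunoprecipitation, so no spread between replicates can be given, no test was run between PDCD4 and IgG, and every interval below is a 95% interval that covers counting error only. The score of a site is its number of cDNAs, and the methods describe that IgG crosslink sites were removed from the PDCD4 replicates before the sites were called, so the lists were not made in the same way.

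PDCD4 is a tumour suppressor best known for binding the translation initiation helicase eIF4A, and much of it resides in the nucleus of unstressed cells. The 5′SS is first recognised by base pairing with the U1 small nuclear RNA, which covers the last bases of the exon and the first bases of the intron, and later by U6. The stretch of intron that follows is bound by proteins such as TIA1 and TIAL1, which prefer uridine-rich RNA, and by hnRNP proteins that bind runs of guanosine. In iCLIP, reverse transcription tends to stop next to the nucleotide attached to a peptide, and UV light cross-links uridine most readily, so base content around a site reflects both the protein and the chemistry.

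The sequences around the sites with the most cDNAs are given here because the bases at the site, and their difference between strong and weak sites, recur in the results below. Each is 31 nt of the GRCh38 transcribed strand, 5′ to 3′, with T for uridine, and the capitals mark the cross-linked nucleotide and the 2 nt after it. The first 11 are all PDCD4 sites with 7 or more cDNAs and the last 3 are taken from the 7 IgG sites with a score greater than 5. These 3 do not include the other IgG site with 7 cDNAs, in ENSG00000268670, so they are not the highest IgG sites.
LAMA5, 9 cDNAs, chr20:62326628-62326658, minus strand, nt 34 of intron 40: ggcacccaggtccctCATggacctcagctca
ADAMTSL4-AS2, 8 cDNAs, chr1:150554502-150554532, minus strand, nt 18 of intron 5: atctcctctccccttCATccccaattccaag
PXN, 8 cDNAs, chr12:120215902-120215932, minus strand, nt 13 of its intron: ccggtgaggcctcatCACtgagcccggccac
CHD4, 8 cDNAs, chr12:6581597-6581627, minus strand, nt 37 of intron 31: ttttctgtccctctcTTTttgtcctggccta
LAMA5, 7 cDNAs, chr20:62328175-62328205, minus strand, nt 51 of intron 35: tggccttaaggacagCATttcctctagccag
NT5DC2, 7 cDNAs, chr3:52529866-52529896, minus strand, nt 8 of its intron: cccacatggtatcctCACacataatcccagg
TRIM26, 7 cDNAs, chr6:30189078-30189108, minus strand, nt 74 of intron 9: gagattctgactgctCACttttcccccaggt
RNF207, 7 cDNAs, chr1:6211114-6211144, plus strand, nt 11 of intron 12: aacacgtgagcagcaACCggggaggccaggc
THOP1, 7 cDNAs, chr19:2812398-2812428, plus strand, nt 41 of intron 4: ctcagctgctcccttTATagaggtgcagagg
PPP6R2, 7 cDNAs, chr22:50441070-50441100, plus strand, nt 59 of intron 22: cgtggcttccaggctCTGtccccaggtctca
TMEM39B, 7 cDNAs, chr1:32076272-32076302, plus strand, nt 33 of its intron: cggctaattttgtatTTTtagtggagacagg
SRSF3, 7 cDNAs, chr6:36594515-36594545, plus strand, nt 49 of its intron: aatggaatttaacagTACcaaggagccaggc
ARHGAP45, 6 cDNAs, chr19:1066210-1066240, plus strand, nt 62 of its intron: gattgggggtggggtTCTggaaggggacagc
LAMA5, 6 cDNAs, chr20:62318784-62318814, minus strand, nt 44 of intron 52: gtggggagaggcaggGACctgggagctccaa
CAT or CAC stood at the site in 6 of the 11 PDCD4 sequences, and TTT in 2. Of all 7 IgG sites with a score greater than 5, 1 had cytidine followed by adenosine, in KDSR, which is not shown. The IgG sequences shown are therefore not set against those of PDCD4. The 30 nt that follow the TMEM39B site occurred at 704 places in the genome, whereas those that follow the other sites shown occurred at 1 place each. Over all sites, the following 30 nt were found elsewhere in the genome for 129 PDCD4 sites (5.51%, 4.66% to 6.51%) and 57 IgG sites (3.82%, 2.96% to 4.91%).

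The sites made up a small share of each list. They were 1.47% of listed PDCD4 sites (1.41% to 1.53%) and 1.34% of listed IgG sites (1.28% to 1.41%), a log2 ratio of PDCD4 to IgG of 0.13 (0.04 to 0.23). Summed over scores they held 6047 of 409308 PDCD4 cDNAs (1.48%) and 3743 of 276139 IgG cDNAs (1.36%). Counted among sites outside exons only, the share was 2.96% of 78993 PDCD4 sites and 2.03% of 73600 IgG sites, a log2 ratio of 0.55 (0.45 to 0.64). The difference between the lists was thus larger when exonic sites, which were a greater part of the PDCD4 list, were left out of the total. Sites carried few cDNAs. The mean score was 2.58 for PDCD4 and 2.51 for IgG, beside 2.58 and 2.48 for all other listed sites, and the highest score was 9 and 7. A score greater than 5, the threshold named in the methods, was reached by 26 PDCD4 sites (1.11%, 0.759% to 1.62%) and 7 IgG sites (0.469%, 0.227% to 0.964%). Over all listed sites, 1.48% and 0.69% reached it.

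The PDCD4 sites were spread over 2074 5′SS of 1620 genes and the IgG sites over 1409 5′SS of 1220 genes. Most 5′SS held a single site, 1886 for PDCD4 and 1340 for IgG, and 3 or more sites were found after 44 and 11 of them. The PDCD4 sites lay closer together, with 14.3% (13.0% to 15.8%) within 3 nt of another site of the list against 7.83% (6.57% to 9.30%) for IgG, beside a longer PDCD4 list. This share was not computed over all listed sites, so it is not read as a trait of these sites. Some groups of neighbouring sites lay in repeated sequence, as described below. Protein-coding genes held 96.1% of the PDCD4 and 95.5% of the IgG sites, and long non-coding RNA genes held 78 and 61 sites. On the opposite strand of an annotated exon lay 45 and 29 sites. In both lists were 6 positions, in the genes SFPQ, DHX32, TSPAN4, GAS6, KANK2 and PRKDC, with 1 to 3 cDNAs in each list. IgG crosslink sites were removed from the PDCD4 replicates before calling, so a small overlap was set in advance. The overlap over all listed sites is not given here, and the 6 positions are not read as a result about these sites.

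The profile along the intron was lowest in the first 10 nt in both lists. Density is given as sites per megabase (Mb) of eligible positions, which are the positions that satisfy the rule in genes with a listed site. The first 10 nt held 111 PDCD4 sites per Mb (93.7 to 130) and nt 11 to 100 held 184 (176 to 192), a log2 ratio of -0.73 (-0.97 to -0.50). For IgG the values were 54.2 (42.6 to 68.1) and 119 (113 to 125), a log2 ratio of -1.13 (-1.47 to -0.79). The difference between these ratios, PDCD4 minus IgG, was 0.40 with an interval from -0.01 to 0.81, so the lists could not be separated on this point. Within the first 10 nt the PDCD4 sites were not uniform. The first intron base, the G of the 5′SS, carried 27 PDCD4 sites with 66 cDNAs, nt 2 carried 14, nt 3 carried 1, nt 4 carried 8, nt 5 carried 12 and nt 6 carried 17. The IgG list had 11, 6, 4, 4, 7 and 10 sites at the same nucleotides. The density at the first base was therefore 197 per Mb for PDCD4 (130 to 287), within the range of the later window, and 80.5 for IgG (40.2 to 144).

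**Figure D1:**
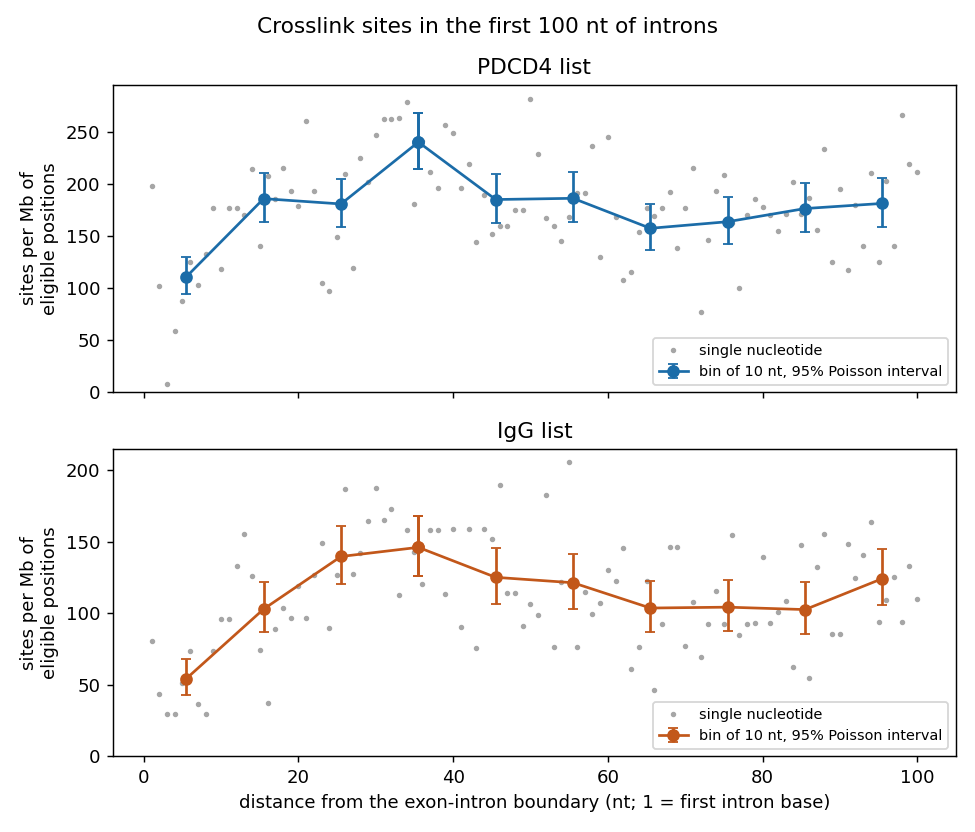
Crosslink sites per Mb of eligible positions (y axis) against the distance from the exon-intron boundary in nt (x axis), for the PDCD4 list (top) and the IgG list (bottom). Grey points are single nucleotides, and coloured points are bins of 10 nt with 95% Poisson intervals. Both lists are lowest in the first bin and highest at nt 31 to 40, at 240 and 146 sites per Mb.

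The densest bin was nt 31 to 40 in both lists, with 240 PDCD4 sites per Mb (214 to 268) and 146 IgG sites per Mb (126 to 168). At nt 21 to 30 there were 181 PDCD4 sites per Mb (159 to 205), near the 185 at nt 41 to 50, and 140 IgG sites per Mb (120 to 161), above the 125 at nt 41 to 50. Taken as 1 bin, density at nt 21 to 40 exceeded that at nt 41 to 100 by a log2 ratio of 0.27 (0.12 to 0.41) for PDCD4 and 0.33 (0.16 to 0.50) for IgG. Since the bases of the 5′SS are nearly fixed, the number of sites in each bin was also set against the number given by its trinucleotides, a comparison chosen after the profile was seen. The rate of each trinucleotide came from the window sites of the same list, so the sites of a bin entered its own expected number. The intervals leave out the error of these rates. The first 10 nt then held 0.76 times the number (0.64 to 0.89) for PDCD4 and 0.57 times (0.44 to 0.71) for IgG, beside 0.63 and 0.48 times the number for an even spread over positions. At nt 31 to 40 the PDCD4 list held 1.34 times the number (1.20 to 1.49) and the IgG list 1.28 times (1.11 to 1.48). Both parts of the window, nt 1 to 50 and nt 51 to 100, differed by a log2 ratio of 0.06 (-0.06 to 0.18) for PDCD4 and 0.03 (-0.12 to 0.17) for IgG.

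Density in the window as a whole was close to that of the intron behind it. In introns of at least 400 nt, the first 100 nt against the next 100 nt gave a log2 ratio of -0.0047 (-0.09 to 0.08) in the PDCD4 list and -0.03 (-0.13 to 0.08) in the IgG list. In introns of at least 1200 nt, the density of PDCD4 sites was 156 per Mb (148 to 164) in the first 100 nt and 134 (127 to 142) at nt 901 to 1000. The IgG values were 110 (103 to 117) and 108 (101.4 to 115). Compared with the last 100 nt of introns, the first 100 nt gave a log2 ratio of -0.06 (-0.14 to 0.02) in the PDCD4 list and -0.00078 (-0.11 to 0.10) in the IgG list. The intervals of these ratios span 0.

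On the exonic side of the same boundaries the pattern differed. Over the 5′SS of canonical transcripts, exon positions 100 to 63 nt before the boundary held 2164 PDCD4 sites per Mb (2120 to 2208) and 699 IgG sites per Mb (674 to 724). In the last 60 nt of the exon the values were 185 (176 to 195) and 87.4 (81.1 to 94.2). The first 60 nt of the intron held 181 (170 to 192) and 108 (99.6 to 116). The density of exonic sites thus fell steeply about 60 nt before the boundary in both lists, to a level near that of the intron, and the bins were drawn after the fall had been seen. The last 10 nt of the exon stood above the 50 nt before them, at 222 PDCD4 sites per Mb (198 to 249) against 177 (167 to 188), and the first 10 nt of the intron stood below, at 96.8 (78.7 to 118). The fall took place between 63 and 62 nt before the boundary, from 233 to 25 PDCD4 sites and from 68 to 11 IgG sites. Whether reads that cross a spliced junction were lost in alignment or calling was not tested, so the densities of the last 62 exonic nt may not be comparable with those of the intron.

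**Figure D2:**
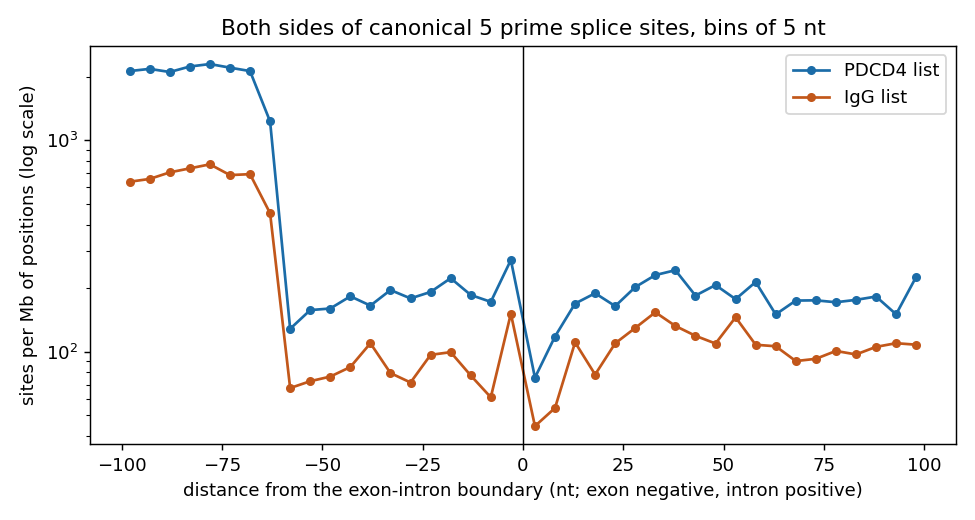
Sites per Mb of positions (y axis, log scale) in bins of 5 nt from 100 nt before to 100 nt after the exon-intron boundary of canonical transcripts (x axis, nt). Lines are the PDCD4 and IgG lists, and both fall about 60 nt before the boundary, are lowest just after it and rise again farther into the intron.

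Uridine was the most frequent base at the sites of both lists. It stood at the cross-linked nucleotide of 47.1% of PDCD4 sites (45.1% to 49.2%) against 28.3% of the eligible positions of the same windows, and of 50.9% of IgG sites (48.3% to 53.4%) against 30.1%. The log2 ratio of the uridine share, PDCD4 to IgG, was -0.11 (-0.24 to 0.02). One nt downstream, uridine reached 50.1% and 53.5%, adenosine 31.6% and 30.7%, and guanosine fell to 4.96% (4.15% to 5.91%) and 5.09% (4.08% to 6.32%), where 26.4% and 24.9% of positions had guanosine. At the next nucleotide, uridine and cytidine were 46.8% and 29.8% of PDCD4 sites and 45.4% and 29.9% of IgG sites. Cytidine at the site itself was the base that differed most between the lists, with 25.4% of PDCD4 sites (23.7% to 27.2%) and 21.2% of IgG sites (19.2% to 23.4%). The windows of the PDCD4 sites were also richer in cytidine (22.1% of eligible positions) than those of the IgG sites (20.6%). Farther than 5 nt from the site, the largest gap between a base and its share in the windows was that of cytidine 15 nt after IgG sites, at 17.4% (15.6% to 19.4%) against 21.6%.

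**Figure D3:**
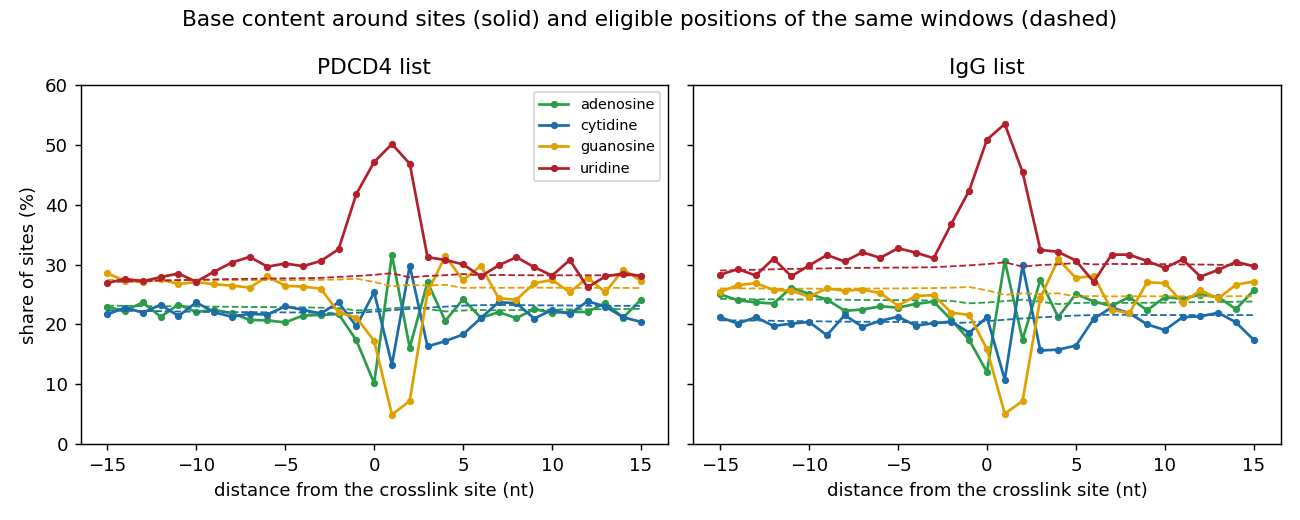
Share of sites with each base in percent (y axis) from 15 nt before to 15 nt after the crosslink site (x axis), for the PDCD4 list (left) and the IgG list (right). Solid lines with points are the sites and dashed lines the eligible positions of the same windows, and in both lists uridine exceeds 45% from the site to 2 nt after it while guanosine drops to about 5% at the nucleotide after the site.

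In terms of trinucleotides that start at the site, UUU led both lists with 15.9% of PDCD4 sites (14.4% to 17.4%; 3.87% of positions) and 15.8% of IgG sites (14.0% to 17.7%; 4.48% of positions). It was followed for PDCD4 by UUC (8.08%), CAU (6.37%, 5.45% to 7.43%), UAU (5.598%) and CAC (4.79%). For IgG it was followed by UUC (9.50%), UUA (6.16%), UAU (5.69%) and CAU (4.69%, 3.73% to 5.88%). The motif UUUU was found in the 31 nt around 31.5% of PDCD4 sites (29.6% to 33.4%) and 33.7% of IgG sites (31.4% to 36.2%), against 20.4% and 24.5% of windows of the same length around eligible positions. GGG was found around 40.6% of PDCD4 sites (43.3% of eligible positions) and 35.4% of IgG sites (37.3%). UCAU, searched after the trinucleotides were seen, was found around 12.4% of PDCD4 sites (9.90% of eligible positions) and 12.5% of IgG sites (11.4%). All motifs were searched on the transcribed strand, and UUUU and UCAU can share uridines.

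The base at the site changed with the number of cDNAs. In the PDCD4 list, uridine stood at 52.2% (49.4% to 55.0%) of the 1239 sites with 1 or 2 cDNAs, at 42.5% (39.1% to 46.0%) of the 802 with 3, at 40.3% (34.6% to 46.2%) of the 273 with 4 or 5 and at 19.2% (8.51% to 37.9%) of the 26 above 5. Cytidine went the other way, from 20.7% (18.6% to 23.1%) through 29.3% and 31.1% to 65.4% (46.2% to 80.6%), which was 17 of 26 sites. In 12 of these 26 (46.2%, 28.8% to 64.5%) the cytidine was followed by adenosine, as in the LAMA5, ADAMTSL4-AS2, PXN, NT5DC2 and TRIM26 sequences above. The rise of cytidine with score was also present outside the window and in the IgG list. At the PDCD4 sites that lay in no exon, outside the window and the last 100 nt of introns, intergenic sites included, cytidine was at 22.5% of sites with 1 or 2 cDNAs and at 33.6% (29.6% to 37.9%) of the 491 above 5. At the IgG sites of the same kind it went from 20.6% to 30.6% (25.9% to 35.8%) of the 330 above 5. In exons it went from 26.2% to 35.0% for PDCD4 and from 23.2% to 29.2% for IgG. Cytidine followed by adenosine was also more frequent above 5 cDNAs in these sets. Outside exons it went from 13.2% to 20.6% (17.2% to 24.4%) for PDCD4 and from 11.7% to 21.2% for IgG. The exonic values were 15.5% and 27.7% for PDCD4, and 13.3% and 16.1% for IgG. In the IgG windows cytidine was at 19.7% (17.2% to 22.4%) of sites with 1 or 2 cDNAs and 25.3% (19.3% to 32.4%) of those with 4 or 5, and only 7 IgG sites were above 5, with cytidine at 1 of them. The score classes were drawn after the threshold of 5 had reversed the uridine excess.

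The introns that carried sites differed between the lists in length and rank. Introns shorter than 1000 nt held 36.5% of PDCD4 sites (34.6% to 38.5%) and 30.4% of IgG sites (28.1% to 32.8%), beside 28.5% of eligible positions, and the log2 ratio of PDCD4 to IgG was 0.26 (0.10 to 0.43). The median length was 1653.5 nt for the introns with a PDCD4 site and 2265 nt for those with an IgG site, against 2063 nt for all introns of genes with a listed site. First introns held 18.5% of PDCD4 sites (16.9% to 20.1%) and 24.3% of IgG sites (22.2% to 26.5%), beside 20.5% of eligible positions, a log2 ratio of -0.40 (-0.60 to -0.19). An intron of the canonical transcript kept its rank there, and any other took its lowest rank among the annotated transcripts of the gene. First introns of any such transcript, also of one that starts inside the gene, thus counted as first introns here. With the introns of canonical transcripts only, the shares were 7.23% (6.12% to 8.51%) and 12.2% (10.4% to 14.3%), beside 9.99% of positions. The difference between the lists thus kept its direction. The base content of the windows moved with these features, with 49.2% G and C in eligible positions of introns with a PDCD4 site, 46.3% in those with an IgG site and 45.6% in all genes with a listed site, and its part in the difference was not tested.

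The 5′SS upstream of the sites matched the consensus slightly less often than all 5′SS of genes with a listed site. A GT start was found in 98.8% of introns with a PDCD4 site and 98.2% with an IgG site (98.4% of all), and a GC start in 22 and 19 introns. At least 7 of the 9 bases of the consensus CAGGTAAGT, which is the perfect complement of the U1 small nuclear RNA, were present at 39.9% of 5′SS with a PDCD4 site (37.8% to 42.0%) and 41.2% with an IgG site (38.6% to 43.8%), against 44.2% of all.

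Turning to genes, 1608 of 12796 genes with eligible positions (12.6%) had at least 1 PDCD4 site in the window and 1206 (9.42%) had an IgG site. Only 18 genes reached 20 cDNAs over both lists. Of these, 8 (44.4%) were at least 2-fold higher in PDCD4 per 10000 cDNAs of the list, with 1 cDNA added to each sum, and 0 (0.0%) were at least 2-fold lower. The minimum was set on cDNAs of both lists without scaling, and the PDCD4 list is the longer one. All 8 genes passed it on PDCD4 cDNAs alone, and genes led by IgG cDNAs, such as PTK2 and PRRC2C, stayed below it, so the split of 8 against 0 is not read as a difference between the lists. The 8 fell to 1 without the 10 largest genes of each list, and to 0 when sites were counted in place of cDNAs, with a minimum of 40 cDNAs or with scores greater than 5. In 5 of the 8 the IgG list had no site in the window, so no fold is given for them. A gene without a site can still have had cDNAs that did not pass the filter, and RNA abundance was not analysed here.

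**Figure D4:**
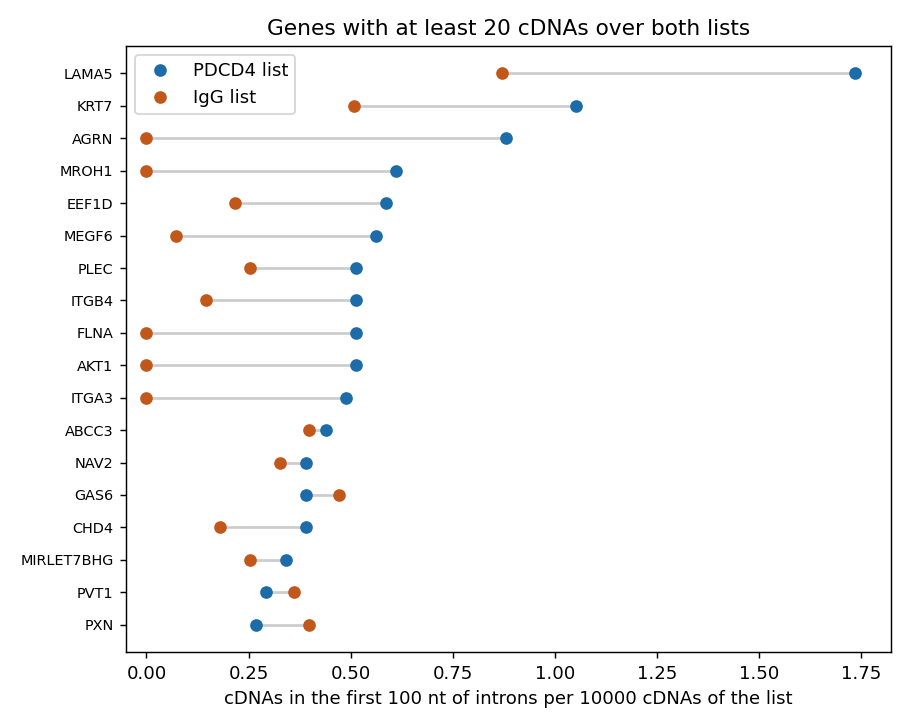
cDNAs in the first 100 nt of introns per 10000 cDNAs of the list (x axis) for the 18 genes with at least 20 cDNAs over both lists (y axis). Blue points are the PDCD4 list and orange points the IgG list, joined by a line, and LAMA5, KRT7 and AGRN have the most PDCD4 cDNAs while 5 genes lie at 0 for IgG.

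LAMA5, KRT7 and AGRN had the most PDCD4 cDNAs in the window. LAMA5, a laminin chain of epithelial basement membranes (chr20:62307955-62367312, minus strand), had 71 PDCD4 cDNAs at 21 sites after 13 of its 56 eligible 5′SS. The IgG list had 24 cDNAs at 8 sites of 4 5′SS in this gene, a ratio of 1.996 per list total (log2 0.33 to 1.66 at the interval bounds). The sites ranged from intron 2 to intron 76, and no single intron held more than 13 PDCD4 cDNAs. The window held 7.62% (6.08% to 9.50%) of the PDCD4 cDNAs of LAMA5 and 13.3% (9.13% to 19.1%) of its IgG cDNAs, beside 1.51% and 1.37% over all genes, so a high window share in LAMA5 was found in both lists.

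AGRN, which encodes the basement membrane proteoglycan agrin, had 36 PDCD4 cDNAs at 11 sites after 5 5′SS and no IgG site in the window, although the whole gene had 141 IgG cDNAs. In AGRN the window held 6.41% of PDCD4 cDNAs (4.66% to 8.74%). Intron 14 held 5 of the sites within 10 nt, at nt 51, 55, 57, 58 and 60. Its boundary is shown here as the last 10 exonic and first 70 intronic nt, with the PDCD4 sites in capitals, because it is the densest AGRN group.
AGRN, chr1:1045514-1045593, plus strand: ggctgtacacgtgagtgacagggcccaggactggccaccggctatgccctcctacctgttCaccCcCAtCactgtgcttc
ITGA3 and ITGB4, integrin subunits that bind laminins, had 20 and 21 PDCD4 cDNAs. ITGA3 had no IgG site in the window, although the whole gene had 122 IgG cDNAs. ITGB4 had 4 IgG cDNAs in the window, a ratio of 3.54 with a log2 interval from 0.28 to 3.37. The whole ITGB4 gene had a log2 ratio of 1.32, and the window shares of its cDNAs overlapped, at 4.78% (3.15% to 7.20%) for PDCD4 and 3.39% (1.33% to 8.39%) for IgG. MEGF6, a protein with many EGF-like domains, had 23 PDCD4 and 2 IgG cDNAs, a ratio of 7.76 with a log2 interval from 0.87 to 5.04. The whole MEGF6 gene had a log2 ratio of 1.43, and its window shares overlapped too, at 9.02% (6.09% to 13.2%) and 3.17% (0.875% to 10.9%).

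KRT7, a keratin of simple and glandular epithelia, had 43 PDCD4 cDNAs at 12 sites and 14 IgG cDNAs at 4 sites, a ratio of 2.07 (log2 interval 0.18 to 1.92). With 1 cDNA added to each sum the log2 ratio was 0.985, so KRT7 was not among the 8 genes called at least 2-fold higher. The window share of its cDNAs was 5.32% for PDCD4 and 5.24% for IgG. In intron 3 of KRT7 the PDCD4 sites lay in a TG repeat, at nt 17 and 19, and the 30 nt after them occurred at 1572 and 153 places in the genome. The IgG sites of this intron lay at nt 42, 59 and 61, at and after the end of the repeat. The boundary is printed with the IgG sites in capitals.
KRT7, chr12:52237708-52237787, plus strand: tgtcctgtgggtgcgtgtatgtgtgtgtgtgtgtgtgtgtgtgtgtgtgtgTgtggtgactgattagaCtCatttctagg
PLEC, the cytolinker plectin, had the lowest PDCD4 window share of the 18 genes. It had 4278 PDCD4 cDNAs over the whole gene but 21 in the window (0.491%, 0.321% to 0.749%), while the IgG list had 7 of 193 (3.63%, 1.77% to 7.30%). Such low PDCD4 shares were also found outside the 18 genes. EGFR had 0 of 595 PDCD4 cDNAs in the window, and the SR protein list had 0.287% (0.112% to 0.735%).

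Among the other genes that were at least 2-fold higher, FLNA, the actin cross-linker filamin A, had 21 PDCD4 cDNAs at 10 sites after 3 5′SS and no IgG site. All FLNA sites had 1 to 3 cDNAs and lay close together in introns 8, 21 and 30. AKT1, the growth factor-activated kinase, had 21 PDCD4 cDNAs at 7 sites and no IgG site, and MROH1 had 25 at 8 sites and no IgG site. Over the whole gene the IgG list had 96 cDNAs for FLNA, 112 for AKT1 and 95 for MROH1. The window shares of FLNA overlapped, at 3.19% (2.10% to 4.83%) for PDCD4 and 0% (0% to 3.85%) for IgG. Those of AKT1 and MROH1 did not. Since these genes passed the minimum on PDCD4 cDNAs alone, this is not read as a difference between the lists. EEF1D, a subunit of the translation elongation factor 1 complex, had 24 PDCD4 and 6 IgG cDNAs, a ratio of 2.70 (log2 interval 0.14 to 2.72). The window shares of EEF1D were 7.29% and 7.41%, so its difference between the lists followed that of the whole gene.

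At the other end of the 18 genes, the lists could not be separated in the window. PXN, the focal adhesion adaptor paxillin, had 11 cDNAs in each list, PVT1, a long non-coding RNA, 12 and 10, and GAS6, a ligand of the TAM receptors, 16 and 13. ABCC3, a transporter of organic anions, had 18 and 11, and NAV2, a microtubule-associated protein, 16 and 9. The log2 interval of the ratio spanned 0 for each of these 5 genes. Below 20 cDNAs, the IgG list was led by PTK2, the focal adhesion kinase, with 14 IgG and 3 PDCD4 cDNAs, and by PRRC2C, with 12 IgG cDNAs and no PDCD4 site. ARHGAP45 likewise had 11 IgG cDNAs and no PDCD4 site. ABLIM3, BIRC6 and FOXK2 had 11 IgG cDNAs each and 6, 4 and 4 PDCD4 cDNAs.

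Several groups of neighbouring sites lay in repeated or low-complexity sequence, and those named here were chosen after their values were seen. In CHD4, a chromatin remodelling ATPase, 4 PDCD4 sites at nt 37 to 40 of intron 13 preceded 30 nt that occurred at 6316 to 8823 places. In RBM14, which had the most IgG sites after 1 5′SS, 6 IgG sites at nt 66 to 71 preceded 30 nt that occurred at 29 to 36 places.

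By gene list, the cytoskeletal and matrix genes had the highest density of PDCD4 sites. Over all genes with eligible positions the density was 176 PDCD4 sites per Mb (169 to 184) and 112 IgG sites per Mb (107 to 118). In the plakins, plectin and keratins it was 892 (588 to 1297) and 264 (114 to 521), with sites in 5 and 4 of 18 genes. KRT7 and PLEC held 19 of the 27 PDCD4 sites of this list. In the laminins, integrins and plexins it was 782 (600 to 1003) and 303 (194 to 451), with sites in 16 and 12 of 33 genes. In the actin cytoskeleton list it was 680 (462 to 966) and 110 (35.6 to 256.1), with sites in 12 and 4 of 22 genes, and FLNA led with 21 PDCD4 cDNAs. The log2 ratios of cDNAs per list total were 1.17 (0.54 to 1.81), 1.04 (0.63 to 1.44) and 1.83 (1.01 to 2.66), beside 0.13 (0.07 to 0.19) over all genes. Of all cDNAs in the genes of each list, the window held 1.21% (0.981% to 1.49%) of the PDCD4 cDNAs of the plakins and keratins, 3.70% (3.23% to 4.24%) of those of the laminins, integrins and plexins, and 1.25% (0.997% to 1.57%) of those of the actin cytoskeleton. For IgG the shares were 2.17%, 3.42% and 0.608%. The laminins, integrins and plexins therefore stood above the share over all genes (1.51% and 1.37%) in both lists, and the other groups did not for PDCD4.

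**Figure D5:**
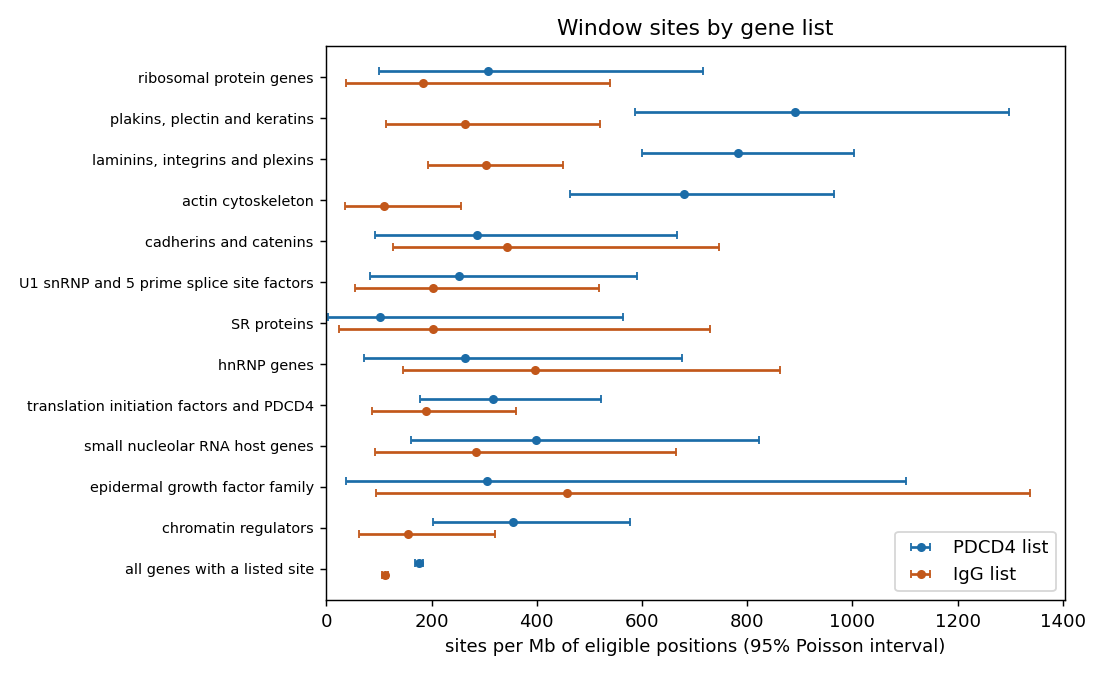
Sites per Mb of eligible positions (x axis) in the PDCD4 and IgG lists for each of 12 gene lists and for all genes with a listed site (y axis), with 95% Poisson intervals. The PDCD4 and IgG intervals are separate for the plakins and keratins, for the laminins, integrins and plexins and for the actin cytoskeleton, and overlap for the other 9 gene lists.

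In the other lists the density intervals of PDCD4 and IgG overlapped. These densities are not scaled to the length of the lists. Per list total, the log2 ratio of cDNAs was -1.74 (-3.44 to -0.04) for the SR proteins, from 4 PDCD4 and 9 IgG cDNAs, and its interval spanned 0 for the other 8 gene lists. Genes for the U1 particle and other factors of the 5′SS had PDCD4 sites in 5 and IgG sites in 3 of 15 genes. They included SNRNP200, the helicase that unwinds U4 and U6 (3 PDCD4 and 4 IgG cDNAs), and TIA1 (2 and 4). The SR proteins, splicing regulators rich in arginine and serine, had PDCD4 sites in 1 of 16 genes (SRRM2, 4 cDNAs) and IgG sites in 2, with 7 of the 9 IgG cDNAs at the SRSF3 site shown above. The hnRNP genes had PDCD4 sites in 4 and IgG sites in 3 of 21 genes, with HNRNPF (5 PDCD4 cDNAs, no IgG site) and HNRNPK (9 IgG cDNAs, no PDCD4 site) leading. Translation initiation factors had sites in 10 and 9 of 48 genes, and EIF4G1, the scaffold of the cap-binding complex, led with 13 PDCD4 and 3 IgG cDNAs. Ribosomal protein genes had sites in 4 and 3 of 70 genes, beside 12.6% and 9.42% of all genes, but these 70 genes held only 16286 eligible positions. Per Mb they had 307 PDCD4 sites (99.7 to 716) and 184 IgG sites (38.0 to 538). These densities were not below the 176 and 112 over all genes. Of all PDCD4 cDNAs in these genes, however, the window held 0.516% (0.295% to 0.900%), below the 1.51% over all genes. For IgG it held 1.20% (0.651% to 2.19%), beside 1.37%. The small nucleolar RNA host genes had sites in 5 and 3 of 24 genes, with SNHG25 (7 PDCD4 cDNAs) and GAS5 (7 IgG cDNAs) leading. Cadherins and catenins had sites in 3 and 4 of 12 genes, led by JUP (7 PDCD4 and 2 IgG cDNAs) and CTNNA1 (4 and 6). In the epidermal growth factor family, AREG and HBEGF had PDCD4 sites (4 and 3 cDNAs) and EGFR had IgG sites only (7 cDNAs), among 6 genes. The chromatin regulators had sites in 7 and 5 of 15 genes, led by CHD4 with 16 PDCD4 and 5 IgG cDNAs, of which 7 PDCD4 cDNAs lay in the repeated sequence described above. As a check of the cell type, cDNAs of all 9 markers of basal breast epithelium were present in the PDCD4 list, with 3 for KRT14, and of 8 markers of other cell types only ESR1 had any (2 cDNAs). In the IgG list KRT14 had 0 cDNAs. The check is coarse, since KRT7, a keratin of simple epithelia that is in neither marker set, had 808 PDCD4 cDNAs over the whole gene, beside 352 for KRT5.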

How the data were processed

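Crosslink sites were measured by iCLIP in 2 PDCD4 and 2 IgG immunoprecipitations, grouped by the sample titles, and replicates were merged by the authors into 1 list each. The deposited score of a site, 1 nt wide, is its cDNA count, which the authors obtained with iCount on GRCh38 (Ensembl release 88) and kept after a false discovery rate filter, without normalization. Their filter on scores greater than 5 is not applied in the lists. The iCount version and alignment settings are not given in the sources used here.

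Sites of any score were placed on GENCODE release 44, a later annotation of the same build, and 14266 of 14416 gene identifiers matched. Each site was assigned to the nearest upstream annotated 5′SS, with nt 1 as the first intron base. Introns retained in any annotated transcript count as exons. Shares have 95% Wilson intervals, densities have exact Poisson intervals, and log2 ratios have intervals that combine the counting errors of numerator and denominator. Nearby cDNAs and sites are not independent, so these intervals are too narrow. Genes were called on summed scores per 10000 cDNAs with a pseudocount of 1, for genes with at least 20 cDNAs. The ratios and intervals printed for single genes are without the pseudocount. Genomic matches of the 30 nt after a site were counted exactly on both strands.

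Members and gene lists were chosen with earlier results of these data known. Named genes are the 10 with most cDNAs in each list, those of the 5 highest sites, the 5 at each end of the ratio, and the 2 leading members of each gene list, of which 1 is not reported here. Alternatives were the score threshold, sites or cDNAs, canonical transcripts, leaving out the 10 largest genes or shared positions, a window of 50 nt, the farthest 5′SS, a pseudocount of 5 and a minimum of 40 cDNAs. The trinucleotide expectation, the nt 1 to 10 and nt 21 to 40 bins, the exonic bins, the intron length classes, the score classes and UCAU were chosen after the data were seen. The density and base statistics were tested on simulated data. Versions were Python 3.11.15, scipy 1.17.1, numpy 2.4.6, matplotlib 3.10.9 and pandas 2.3.3.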

Additional observations from a re-analysis of the deposited data

How the results depend on the processing

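With only scores greater than 5, which left 26 PDCD4 and 7 IgG sites, the uridine excess over the windows reversed for PDCD4, from 18.8 to -2.55 percentage points, and rose to 35.8 for IgG. The share of listed sites was then 1.10% and 0.911%, first introns held 26.9% and 71.4% of sites, the IgG log2 ratio of nt 1 to 50 over nt 51 to 100 was -0.46, and 0 genes were at least 2-fold higher in PDCD4. Weighting sites by cDNAs gave a PDCD4 uridine excess of 16.6 percentage points, and counting sites in place of cDNAs per gene left 0 genes at least 2-fold higher, since fewer genes reached the minimum. With canonical transcripts the shares of listed sites were 1.14% and 0.962%, and first introns held 7.23% and 12.2%. With a window of 50 nt the shares were 0.762% and 0.686%. Without the 10 largest genes of each list 1 gene was at least 2-fold higher, and with a minimum of 40 cDNAs it was 0. Other alternatives moved these results by less than their counting intervals or 1.5 times, including the pseudocount of 5, which left 6 genes. The threshold decides the number of strong sites, and at this depth 7 IgG sites above it allow no statement on their bases. No paired analysis was possible because each list pools its replicates and holds no value per replicate, so leaving out a replicate was not possible either.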
